A study of Mus musculus with 6 samples.

Results

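The colony-stimulating factors and their receptors were followed in peritoneal macrophages (PEMs) with and without Tim-4. The family has 8 members here, chosen by gene symbol from the 15415 genes listed. They are the ligand genes Csf1 (Entrez gene 12977), Csf2 (12981) and Csf3 (12985) and the receptor genes Csf1r (12978), Csf2ra (12982), Csf2rb (12983), Csf2rb2 (12984) and Csf3r (12986). All 8 of the 8 were listed and all 8 were among the 9030 genes that reached a mean of at least 1 FPKM (reads scaled to gene length and to the total of the library) in one group. The family was picked because Csf1 was higher and Csf3 lower in the knockout group of these same libraries. The values of the members in that comparison are therefore a description, and no p-value is given for them.

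PEMs were taken from the peritoneal cavity of male C57BL/6J mice aged 6 to 8 weeks, per the study's methods, on day 3 after an injection of 1 ml of 6% starch. The knockout group (3 libraries, CKO 1 to CKO 3) was of the genotype LysM-Cre; Tim-4 fl/fl, with a Cre that is driven by the lysozyme gene Lyz2 in myeloid cells and not in macrophages alone. The control group (3 libraries, Control 1 to Control 3) came from Tim-4 fl/fl littermates. Both groups carry the floxed alleles, and the controls carry no Cre, so that the presence of Cre and the loss of Tim-4 cannot be told apart. All 6 libraries are labelled as treated with LPS. The study's methods describe 1 µg/ml LPS for 3.5 hours for activated PEMs without stating that the sequenced cells were handled in that way, and no library without LPS was analysed here. Titles and genotype labels contradict each other on which libraries are knockouts, and the titles were followed. The labels do not say whether the libraries of a group came from separate mice, so the spread between them may be technical.

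Between 36170767 and 42217558 reads per library were recovered from the FPKM. Timd4, the gene of Tim-4, lay between 0.246 and 0.394 FPKM in the CKO libraries and at 19.5, 12.0 and 1.19 FPKM in Control 1, 2 and 3, so that Control 3 stood closer to the knockouts than the other controls did. Summed markers of large peritoneal macrophages were at 4.47 to 10.6 FPKM in CKO and at 155, 99.6 and 37.4 FPKM in Control 1, 2 and 3. The part of these cells in the Timd4 values was not tested. Lyz2, the macrophage lysozyme gene that also carries the Cre, was at 41.4 and 106 FPKM in CKO 1 and CKO 3 but at 4656 FPKM in CKO 2. It was between 7090 and 8482 FPKM in the controls. The macrophage markers Cd68, Adgre1, Itgam and Cd14 ranged from 235 to 1685 FPKM over the 6 libraries. Of the same list, Mrc1 was at 41.9 to 69.4 FPKM and Mertk at 0.821 to 12.1 FPKM over the 6 libraries. Fcgr1 was at 36.1 to 57.5 FPKM in CKO and 5.16 to 6.58 FPKM in Control libraries. The whole list of 7 summed to 2604 to 2796 FPKM in CKO and 2088 to 2533 FPKM in Control libraries, with Cd68 as the largest part. In bulk RNA, fewer cells of a type and less RNA per cell cannot be told apart.

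Colony-stimulating factors are secreted cytokines that drive the growth, survival and activation of myeloid cells. M-CSF, the product of Csf1, acts through the receptor tyrosine kinase CSF1R and keeps macrophages alive. GM-CSF (Csf2) binds an alpha chain (Csf2ra) that signals through the common beta chain (Csf2rb), and G-CSF (Csf3) binds CSF3R on the neutrophil lineage. The GM-CSF and G-CSF receptors have no kinase of their own and signal through JAK kinases and STAT factors. Activated macrophages are a known source of all of these factors. The KEGG terms in the deposited table place all 8 members among the 195 listed genes of cytokine-cytokine receptor interaction. The JAK-STAT signalling term holds 6 of them, all but Csf1 and Csf1r.

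The 3 ligand genes did not move together. Csf1 was higher in the CKO libraries, Csf3 was lower, and Csf2 was low in both groups with overlapping values. Among the receptor genes, Csf1r was lower in the CKO libraries, whereas Csf2ra, Csf2rb, Csf2rb2 and Csf3r overlapped between the groups. Across the family, 1 member was higher in every CKO library than in any Control library, 2 were lower, and 5 overlapped. Over all genes tested, 34.1% did not overlap between the groups, 11.1% with every CKO library higher and 23.0% with every CKO library lower. At an adjusted p of 0.05 in limma, 1 of the 8 members, Csf1, was past the threshold, beside 7.31% of all genes tested (2.57% higher and 4.74% lower in the knockouts). The count of members was 0 without CKO 1, CKO 2, Control 1 or Control 2 and 2 without CKO 3 or Control 3. Since the contrast chose the family, nothing is read from these counts.

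**Figure D1:**
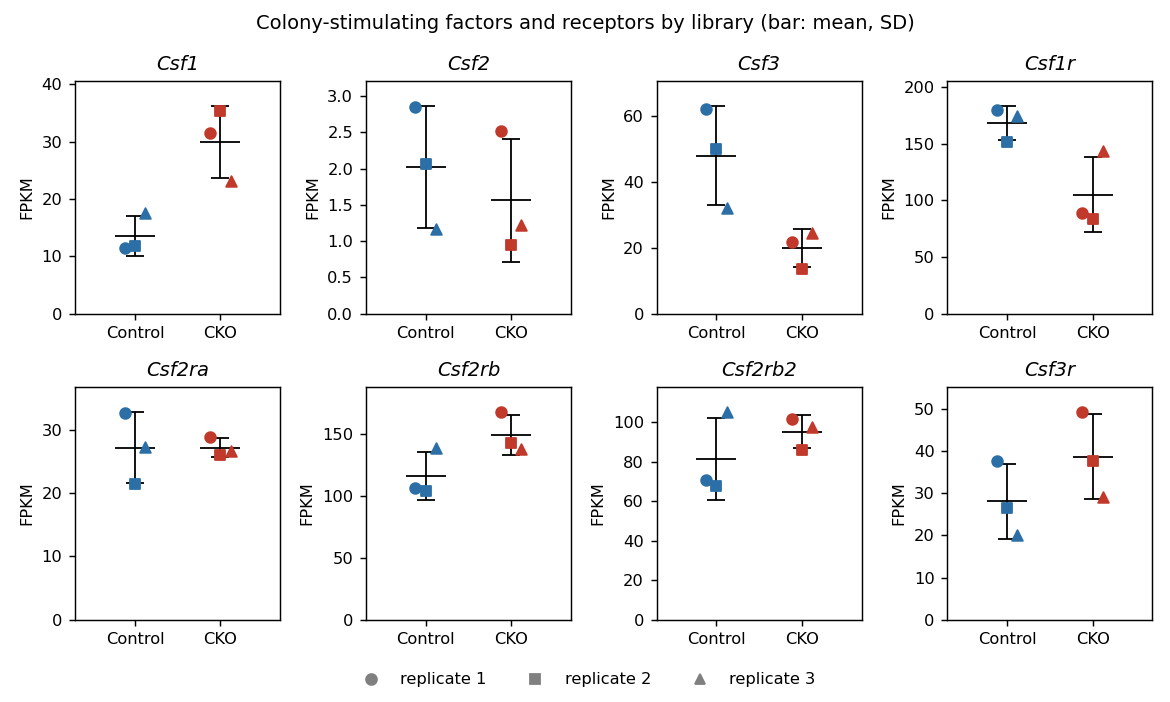
FPKM of the 8 members in the 3 CKO and 3 Control libraries, with a panel for each gene on its own linear axis starting at 0. Points are libraries, and the horizontal line and bar give the mean and its SD (n = 3). Csf1 is higher in all 3 CKO libraries, Csf3 and Csf1r are lower in all 3, and the other 5 genes overlap.

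Csf1 stood at 31.6, 35.3 and 23.1 FPKM in CKO 1, 2 and 3, and at 11.4, 11.8 and 17.6 FPKM in Control 1, 2 and 3. The lowest CKO library, CKO 3, was above the highest control, Control 3, and these 2 libraries were the closest across the groups. The mean was 30.0 ± 6.25 FPKM (SD, n = 3) in CKO and 13.6 ± 3.51 FPKM (SD, n = 3) in Control libraries, a ratio of 2.20. On the log2(FPKM + 1) scale the difference was 1.09 (standard error 0.22). Between 2171 and 7191 reads lay behind each value, so counting error was small beside the spread between libraries. Leaving out 1 library gave differences from 0.97 to 1.28. Markers of mesothelial cells and fibroblasts, which can also make M-CSF, summed to 15.8 to 38.6 FPKM in CKO and 4.86 to 24.5 FPKM in Control libraries. These ranges overlapped, and most of each sum was Dcn, Pdgfrb and collagen genes. Of the 6 markers tested 0 passed the threshold. Single markers were nevertheless higher in every CKO library, namely Col1a2, at 1.84 to 8.30 FPKM against 0.0437 to 1.47 FPKM, and Pdgfra, at 0.592 to 2.13 FPKM against 0.0220 to 0.210 FPKM. Col1a1 and Col3a1 had means of 2.52 and 2.25 FPKM in CKO and 0.487 and 0.543 FPKM in Control libraries, with overlapping values. Pdgfrb went the other way, with means of 3.54 FPKM in CKO and 6.05 FPKM in Control libraries, and overlapped too. The part of these cells in the Csf1 values was not tested.

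The sequence upstream of Csf1 is shown because Csf1 is the ligand that was higher in the knockouts, and that of Csf2 because Csf2 was low in both groups. Each run is the 250 bases before the RefSeq gene start in GRCm38.p6, read 5′ to 3′ on the strand of the gene, which is the minus strand for both. Capitals mark a match to the κB consensus, the letters bound by NF-κB, on either strand.
Csf1 (chr3:107760470-107760719): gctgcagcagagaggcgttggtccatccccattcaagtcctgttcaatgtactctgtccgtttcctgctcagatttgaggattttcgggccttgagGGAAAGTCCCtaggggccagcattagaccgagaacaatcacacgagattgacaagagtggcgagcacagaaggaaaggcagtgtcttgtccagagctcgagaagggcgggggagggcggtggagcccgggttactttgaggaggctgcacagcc
Csf2 (chr11:54249900-54250149): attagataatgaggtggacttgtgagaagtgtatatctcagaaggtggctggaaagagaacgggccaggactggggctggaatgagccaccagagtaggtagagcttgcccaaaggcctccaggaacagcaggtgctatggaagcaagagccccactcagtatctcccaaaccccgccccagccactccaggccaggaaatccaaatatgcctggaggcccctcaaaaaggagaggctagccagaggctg
The match of Csf1 lies at -154 to -145 from the gene start and reads GGGACTTTCC on the other strand. In the Csf2 window no letters matched the consensus. This holds for the 250 bases before the RefSeq start used here. Sequence before other starts of Csf2 or farther away was not searched. Of 32851 promoter windows of this length, 7.25% held a match, so such a match is not rare. Windows were at hand for 5 of the 8 members, namely Csf1, Csf2, Csf2ra, Csf2rb2 and Csf3r. Among them Csf3r also held a κB match, GGGACCTTCC at -129 to -120. The letters GAGGAA, a core bound by the myeloid factor PU.1, were found on either strand in Csf2ra (at 2 places), Csf2rb2 and Csf3r, and in 23.3% of all windows. The letters TTNCNNAA, as bound by C/EBP factors, were found in Csf2 and Csf2ra and in 36.8% of all windows. The AP-1 letters TGANTCA were found on either strand in 0 of the 5 and in 6.75% of all windows. No match overlapped one of another motif in these 5 windows. These are matches of letters and not measured binding.

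Csf3 was at 21.8, 13.5 and 24.5 FPKM in CKO 1, 2 and 3 and at 62.0, 49.8 and 32.0 FPKM in Control 1, 2 and 3. Every CKO library was below every control, and as for Csf1 the closest pair across the groups was CKO 3 and Control 3. The mean was 19.9 ± 5.72 FPKM (SD, n = 3) against 48.0 ± 15.1 FPKM (SD, n = 3), a ratio of 0.416. The log2(FPKM + 1) difference was -1.22 (standard error 0.29), and it lay between -1.47 (without Control 3) and -0.97 (without CKO 2) with 1 library left out. Between 1108 and 4745 reads lay behind the values.

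Csf2 was the lowest member, at 2.52, 0.942 and 1.22 FPKM in CKO and 2.84, 2.06 and 1.16 FPKM in Control libraries. The ranges overlapped almost fully. The means were 1.56 ± 0.844 and 2.02 ± 0.841 FPKM (SD, n = 3), and the log2(FPKM + 1) difference was -0.25 (standard error 0.28). With 1 library left out it lay between -0.50 (without CKO 1) and -0.06 (without Control 1). Only 51 to 144 reads were counted per library, so Csf2 is the member with the greatest counting error. T and NK cells, another source of GM-CSF, had summed marker levels of at most 0.583 FPKM in CKO and 2.01 FPKM in Control libraries, with overlapping ranges.

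The ratio of Csf1 to Csf3 within a library, which does not depend on how libraries are scaled, was 1.45, 2.61 and 0.941 in CKO 1, 2 and 3 and 0.184, 0.236 and 0.551 in Control 1, 2 and 3. Control libraries thus held more Csf3 than Csf1 per length, while 2 of the 3 CKO libraries held more Csf1. CKO 3 and Control 3 were again the nearest to each other.

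Among the receptors, Csf1r was at 88.7, 83.3 and 143.4 FPKM in CKO 1, 2 and 3 and at 179.6, 151.5 and 174.1 FPKM in Control 1, 2 and 3. CKO 3 lay just below Control 2, and CKO 1 and CKO 2 were lower. The means were 105.1 ± 33.3 and 168.4 ± 14.9 FPKM (SD, n = 3). The log2(FPKM + 1) difference was -0.71 (standard error 0.22). With 1 library left out it lay between -0.96 (without CKO 3) and -0.57 (without CKO 2). Between 13628 and 27472 reads lay behind each value. Markers of large peritoneal macrophages, the resident population of the cavity, were lower in the same libraries. Their summed level was 4.47 to 10.6 FPKM in CKO and 37.4 to 155 FPKM in Control libraries, and 3 of the 6 markers tested fell. Most of the Control sum was Prg4 (2.33 to 3.99 FPKM in CKO and 30.1 to 114 FPKM in Control libraries). Their part in the Csf1r values was not tested. The markers common to macrophages did not move one way. Of 7, Fcgr1 and Mrc1 rose and 0 fell. Cd68 was at 1572 to 1685 FPKM in CKO and 816 to 1379 FPKM in Control libraries, Cd14 was at 262 to 406 FPKM and 484 to 631 FPKM, and Adgre1, Itgam and Mertk overlapped between the groups.

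Csf2ra, the alpha chain of the GM-CSF receptor, was at 28.8, 25.9 and 26.6 FPKM in CKO and 32.7, 21.5 and 27.3 FPKM in Control libraries. All 3 CKO libraries lay within the range of the controls. The means were 27.1 ± 1.51 and 27.1 ± 5.61 FPKM (SD, n = 3), and the log2(FPKM + 1) difference was 0.02 (standard error 0.17), with a sign that turned when CKO 1 or Control 2 was left out. The level of Csf2ra depends on the gene length that was used. The length implied by reads and FPKM was 13719 bases, 4.78 times the 2871 bases of its exons in GENCODE M21, while the median of that ratio over 8820 genes was 0.837. For the other 7 members the ratio lay between 0.670 and 1.60, so a comparison of Csf2ra with another member by level is uncertain.

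Csf2rb, the beta chain shared by the receptors of GM-CSF, IL-3 and IL-5, was at 167.3, 142.5 and 137.5 FPKM in CKO and 106.6, 103.6 and 138.5 FPKM in Control libraries. Control 3 lay within the CKO range and the other controls below it. The means were 149.1 ± 16.0 and 116.2 ± 19.4 FPKM (SD, n = 3) and the log2(FPKM + 1) difference was 0.36 (standard error 0.16). Csf2rb2, the beta chain that mice use for IL-3 alone, was at 101.7, 85.8 and 97.6 FPKM in CKO and 70.9, 67.6 and 105.0 FPKM in Control libraries. Control 3 was the highest of all 6 for Csf2rb2. The means were 95.1 ± 8.25 and 81.2 ± 20.7 FPKM (SD, n = 3), with a log2(FPKM + 1) difference of 0.25 (standard error 0.19) that lay between 0.13 (without Control 2) and 0.45 (without Control 3) with 1 library left out. Mast cells also carry the IL-3 receptor, and their summed markers were lower in all CKO libraries, at 1.89 to 2.27 FPKM against 38.2 to 49.3 FPKM, with 5 of 5 tested markers past the threshold. The part of mast cells in the beta chain values was not tested.

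The values of these 2 beta chains are uncertain against each other because the genes are near copies. Both lie on chromosome 15 in GRCm38. The first 120 coding bases of each are shown 5′ to 3′ so that the likeness can be seen, with capitals at the 4 bases that differ.
Csf2rb: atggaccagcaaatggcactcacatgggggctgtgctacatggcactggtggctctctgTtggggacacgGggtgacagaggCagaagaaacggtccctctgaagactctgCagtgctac
Csf2rb2: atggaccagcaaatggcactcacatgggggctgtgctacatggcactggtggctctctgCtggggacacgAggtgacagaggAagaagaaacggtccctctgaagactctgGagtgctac
Over the whole coding sequences of 2688 and 2634 bases, 2503 of 2628 aligned bases were identical, which is 95.2%. Of all windows of 50 bases in the Csf2rb transcript, 18.4% were found unchanged in Csf2rb2, against 6.96% of windows of 100 bases and 3.47% of windows of 150 bases. How reads matching both genes were assigned is not given in the sources used here. The ratio of Csf2rb to Csf2rb2 was 1.41 to 1.66 in CKO and 1.32 to 1.53 in Control libraries, ranges that overlapped.

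Csf3r, the G-CSF receptor, was at 49.2, 37.7 and 29.1 FPKM in CKO 1, 2 and 3 and 37.7, 26.5 and 20.1 FPKM in Control 1, 2 and 3. The groups overlapped, with CKO 1 above all others and Control 3 below all others. The means were 38.7 ± 10.1 and 28.1 ± 8.91 FPKM (SD, n = 3) and the log2(FPKM + 1) difference was 0.46 (standard error 0.27), and it was 0.25 without Control 3, 0.27 without CKO 1 and 0.69 without Control 1. Neutrophils are the usual carriers of this receptor. Their markers summed to 71.2 to 201 FPKM in CKO and 195 to 459 FPKM in Control libraries, overlapping ranges, and 2 of the 5 tested fell. Most of this sum was S100a8 (39.9 to 70.5 FPKM in CKO and 156 to 171 FPKM in Control libraries) and Mmp8 (29.2 to 127 FPKM and 19.5 to 294 FPKM). S100a9 was at most 5.12 FPKM, Retnlg at most 3.08 FPKM and Camp at most 1.56 FPKM in any library, and the 2 that fell were S100a8 and Camp. Of the other listed markers, Cxcr2 was at most 0.0531 FPKM, Ngp at most 0.143 FPKM and Ltf at most 0.151 FPKM.

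Since each library lists ligand and receptor together, their ratios were taken as well. Csf1 over Csf1r was 0.161 to 0.424 in CKO and 0.0634 to 0.101 in Control libraries. Csf3 over Csf3r was 0.359 to 0.843 in CKO and 1.60 to 1.88 in Control libraries. Csf1r over Csf2rb was 0.530 to 1.04 in CKO and 1.26 to 1.69 in Control libraries. None of these 3 ratios overlapped between the groups, and each contains at least 1 gene whose own values did not overlap. Csf2rb over Csf2ra, 2 genes that each overlapped, was 5.17 to 5.81 in CKO and 3.26 to 5.07 in Control libraries, also without overlap.

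By mean FPKM, the CKO libraries ranked Csf2rb first, then Csf1r, Csf2rb2, Csf3r, Csf1, Csf2ra, Csf3 and Csf2. The neighbours Csf2rb and Csf1r, Csf1r and Csf2rb2, Csf3r and Csf1, and Csf1 and Csf2ra had overlapping values, and the other steps did not overlap. The Control libraries ranked Csf1r first, then Csf2rb, Csf2rb2, Csf3, Csf3r, Csf2ra, Csf1 and Csf2, where Csf2rb and Csf2rb2, Csf3 and Csf3r, and Csf3r and Csf2ra overlapped. The place of Csf2ra in both orders rests on the long gene length described above and would be higher with the GENCODE exon length. Csf1r and Csf2rb were thus among the abundant genes of these cells, with Csf1r between percentiles 91.7 and 94.8 of the tested genes in CKO and between 95.0 and 95.8 in Control libraries. Csf1 lay between percentiles 75.1 and 82.7 in CKO and between 60.4 and 69.2 in Control libraries. Csf3 lay between percentiles 66.2 and 76.3 in CKO and between 80.7 and 89.1 in Control libraries.

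Over all genes tested the median log2(FPKM + 1) difference was -0.11, and rescaling the FPKM by the median of ratios moved it to 0.01. After this rescaling the difference was 1.23 for Csf1, -1.07 for Csf3, -0.57 for Csf1r and 0.60 for Csf3r. It was 0.51 for Csf2rb, 0.40 for Csf2rb2, 0.16 for Csf2ra and -0.16 for Csf2, so that the values of Csf2rb2, Csf2ra and Csf2 moved by over 1.5 times. All 8 had the same sign as before. Libraries of the same number were also subtracted from each other, although a pairing by number is not settled. Csf1 was higher in the knockout of all 3 pairs (1.39, 1.51 and 0.37 on the log2 scale). Csf3 was lower in all 3 pairs (-1.47, -1.81 and -0.37), and so was Csf1r (-1.01, -0.85 and -0.28). Csf3r was higher in all 3 pairs (0.38, 0.49 and 0.51), although its groups overlapped. For Csf1, Csf3 and Csf1r the pair with number 3 differed least.

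**Figure D2:**
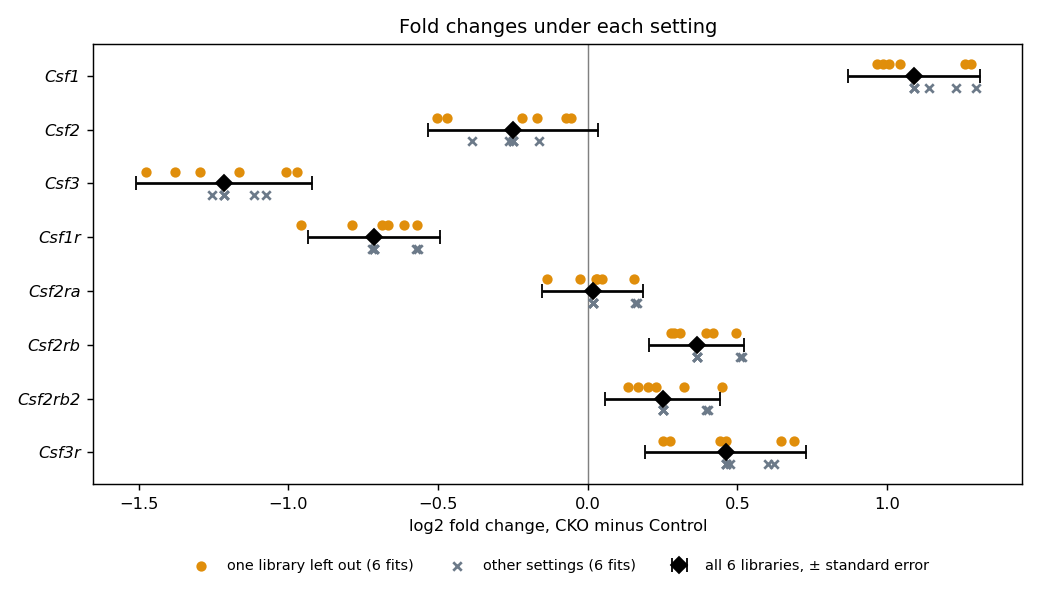
Difference in log2(FPKM + 1) between CKO and Control libraries for each member, with all 6 libraries (black diamond with its standard error), with 1 library left out (orange points, 6 fits) and under the 6 other settings (grey crosses, of which voom is in log2 reads scaled to the library total). Csf1, Csf2rb, Csf2rb2 and Csf3r stay above 0 and Csf2, Csf3 and Csf1r stay below 0 in every fit shown, while Csf2ra lies on both sides of 0.

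To place the members among the genes that act with them, 7 lists of pathway genes were followed, 81 genes in all. Of these, 79 were listed and 72 passed the filter. With limma, 2 rose and 7 fell in the knockouts, which is 12.5% of those tested beside 7.31% of all genes tested. The lists were chosen with earlier results of these data known, so nothing is read from this share. The adjusted p-values of the listed genes are descriptive for the same reason. The median log2(FPKM + 1) difference over the 72 genes was 0.07, against -0.11 over all genes. The number past the threshold rested on single libraries. It was 0 without Control 2 (11 at an unadjusted p under 0.05), 1 without CKO 1, 1 without CKO 2 and 15 without Control 3. Of the 9 genes past the threshold with all 6 libraries, 0 kept their call without Control 2, and Tfec alone kept it without CKO 1 or without CKO 2.

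Of 11 transcription factors that control myeloid receptor genes, 3 fell and 0 rose, and the median difference of the list was -0.49. Tfec, a relative of MITF in macrophages, was at 13.5, 9.91 and 10.8 FPKM in CKO and 32.3, 31.1 and 26.7 FPKM in Control libraries (log2 difference -1.33, standard error 0.15, limma adjusted p = 0.00963). Its groups were far apart beside their spread. Runx1, which acts at the Csf1r gene, was at 5.74 to 9.01 FPKM in CKO and 11.8 to 14.5 FPKM in Control libraries (-0.79, standard error 0.17, adjusted p = 0.0413). Runx1 lost its call in 4 of 12 alternatives, the fit without a filter among them. Cebpa, a factor of granulocyte and macrophage development, was at 3.16 to 9.84 FPKM against 13.1 to 39.2 FPKM (-1.93, standard error 0.46, adjusted p = 0.0497). It lost its call in 7 of 12 alternatives. Cebpb, the most abundant gene of the list, was at 230.1 to 276.6 FPKM in CKO and 209 to 277.3 FPKM in Control libraries and was not past the threshold.

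Receptor-proximal signalling genes, which are the kinases, adaptors and STAT factors that carry the signal from the receptors, had 0 of 25 past the threshold in limma. At an unadjusted p under 0.05 there were 3, voom called 0, and a replicate block in the fit brought 1 call, Pik3cd. This PI3K subunit gene was at 17.9, 20.6 and 10.8 FPKM in CKO and 13.0, 9.08 and 5.58 FPKM in Control libraries, so its groups overlapped. The most abundant was Tyrobp, an adaptor, at 615 to 708 FPKM in CKO and 549 to 619 FPKM in Control libraries. Stat5a, a STAT factor downstream of GM-CSF that was picked out after its values were seen, was at 38.8, 31.2 and 21.1 FPKM in CKO and 12.0, 13.6 and 22.8 FPKM in Control libraries (0.88, standard error 0.29, adjusted p = 0.109, and 0.0271 to 0.317 over the 12 alternatives). CKO 3 and Control 3 crossed for this gene.

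Of 12 negative regulators of these receptors, 1 fell and 0 rose. Inpp5d, the lipid phosphatase SHIP1 that restrains PI3K signalling, was at 1.64, 1.93 and 3.10 FPKM in CKO and 8.77, 6.05 and 5.75 FPKM in Control libraries (-1.29, standard error 0.22, adjusted p = 0.0205). Socs3, the inhibitor of G-CSF receptor signalling and the most abundant of the list, was at 325, 324 and 163 FPKM in CKO and 178, 122 and 45.2 FPKM in Control libraries. Its groups overlapped, and its limma adjusted p was 0.139 (0.0219 to 0.383 over the 12 alternatives, the lowest with the replicate number as a block).

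Among genes known to respond to GM-CSF, 1 of 9 rose and 1 fell. Pim1, a kinase gene induced through STAT5, was at 307, 305 and 266 FPKM in CKO and 169, 169 and 193 FPKM in Control libraries (0.72, standard error 0.13, adjusted p = 0.0243). It was also the most abundant of its list. Irf4, a factor of alternatively activated and monocyte-derived macrophages, was at 1.62, 0.722 and 0.658 FPKM in CKO and 6.84, 5.11 and 2.96 FPKM in Control libraries (-1.55, standard error 0.29, adjusted p = 0.0263). Irf4 lost its call in 6 of 12 alternatives, among them the fit without a filter and voom. It also stands in the list of small peritoneal macrophage and monocyte markers, in which it was the only 1 of 4 tested past the threshold. The sum of that list, 80.7 to 98.5 FPKM in CKO and 180 to 3011 FPKM in Control libraries, is in the controls mostly that of Chil3, at 144 to 2991 FPKM there. Ly6c2 of the same list was at 5.61 to 51.1 FPKM in CKO and 5.42 to 32.5 FPKM in Control libraries. Of 5 growth response genes, Myc fell, from 10.4 to 15.8 FPKM in Control libraries down to 4.31 to 5.79 FPKM in CKO (-1.12, standard error 0.18, adjusted p = 0.0196). Cdk4, the most abundant of them, was at 33.5 to 38.2 FPKM in CKO and 27.8 to 54.5 FPKM in Control libraries.

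Of 6 LPS genes tied to the NF-κB cofactor IκBζ, among them its own gene Nfkbiz, 1 rose. With the replicate number as a block 3 were past the threshold, Cebpd, Edn1 and Il12b. Cebpd was at 19.6, 23.1 and 21.1 FPKM in CKO and 9.80, 12.0 and 13.3 FPKM in Control libraries (0.82, standard error 0.15, adjusted p = 0.0254). Cebpd lost its call in 4 of 12 alternatives, each a fit with a library left out. Edn1, the endothelin 1 gene, was at 117, 135 and 30.2 FPKM in CKO and 39.6, 28.6 and 4.91 FPKM in Control libraries, and overlapped between the groups. Il12b, a subunit of IL-12, was at 302, 267 and 123 FPKM and at 146, 135 and 76.0 FPKM, and overlapped as well. Il6, the most abundant, was at 537, 399 and 358 FPKM in CKO and 1932, 1122 and 220 FPKM in Control libraries, with Control 3 below all knockouts. Of the related ligands and receptors, 4 were tested. Kit, the receptor of stem cell factor and close relative of CSF1R, fell, from 0.724 to 2.10 FPKM in Control libraries down to 0.160 to 0.303 FPKM in CKO (-0.90, standard error 0.21, adjusted p = 0.0497). Kit also marks mast cells, whose other markers were lower in the same libraries, and it lost its call in 6 of 12 alternatives, the replicate block among them (adjusted p = 0.0538, and 0.0282 to 0.179 over all 12). Il3ra, the alpha chain that pairs with both beta chains, was at 14.6, 16.2 and 11.9 FPKM in CKO and 11.9, 8.04 and 8.78 FPKM in Control libraries (0.54, standard error 0.18, adjusted p = 0.114).

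**Figure D3:**
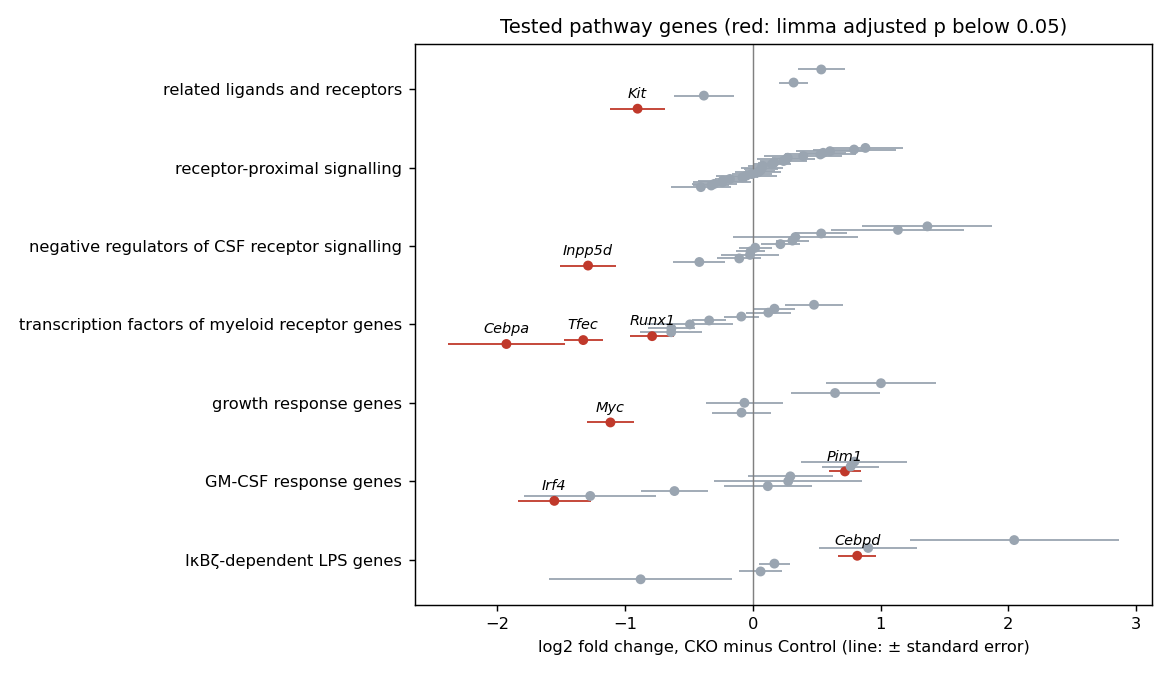
Difference in log2(FPKM + 1) between CKO and Control libraries for the tested genes of the 7 pathway lists, with genes past an adjusted p of 0.05 set apart by colour. The 9 genes past the threshold are 2 to the right of 0 (Pim1 and Cebpd) and 7 to the left.

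Genes with a pattern like that of Csf1 and Csf3 over the 6 libraries were found by the root mean square difference in log2(FPKM + 1), each gene centred on its own mean, among 5459 genes with a mean of at least 5 FPKM. Nearest to Csf1 were Vim, an intermediate filament gene (0.092), Tpcn2, a lysosomal channel gene (0.093), Plekhn1 (0.099), Batf, an AP-1 family factor (0.105), and the surface receptor gene Slamf7 (0.111). Batf was at 88.8, 87.2 and 70.8 FPKM in CKO and 32.8, 33.3 and 44.2 FPKM in Control libraries. Nearest to Csf3 were Gpr84, a receptor for medium-chain fatty acids (0.153), 6530402F18Rik (0.178), D16Ertd472e (0.184), Tma16 (0.188) and Ntng2 (0.193). Gpr84 was at 49.9, 32.5 and 64.9 FPKM in CKO and 175.5, 108.9 and 66.8 FPKM in Control libraries. These genes were chosen for their likeness over the same 6 libraries, so that a shared pattern is no further result. Within a difference of 0.2 there were 38 genes for Csf1 and 6 for Csf3.

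**Figure D4:**
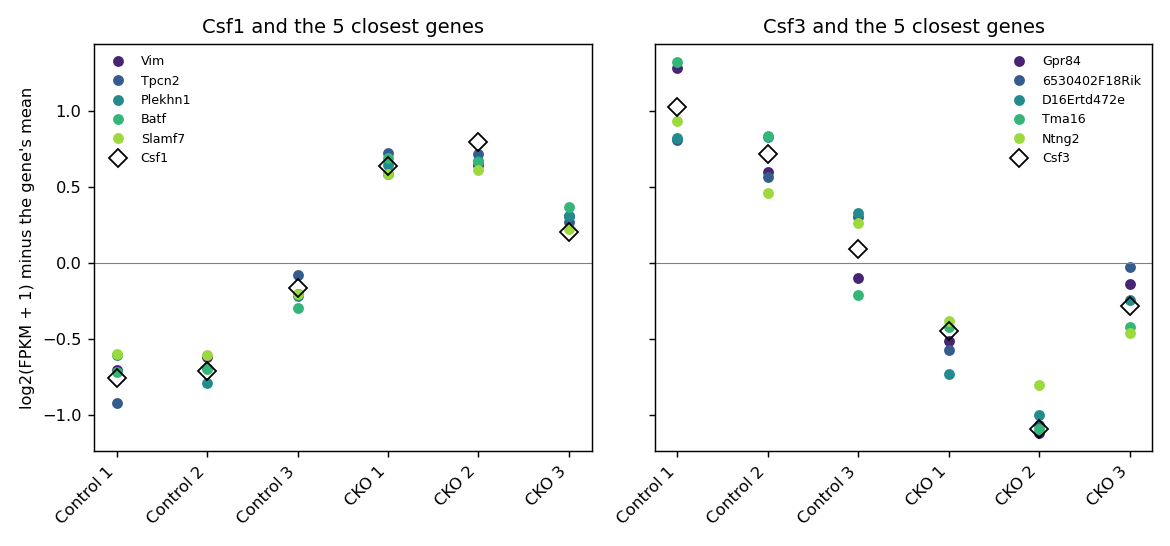
Centred log2(FPKM + 1) in each of the 6 libraries for Csf1 (left, open diamonds) and Csf3 (right, open diamonds) and the 5 genes nearest to each (filled points). Csf1 and Csf3 themselves lie closest to 0 in CKO 3 and Control 3, and the nearest genes of Csf1 lie tighter around it than those of Csf3.

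Markers of cells other than macrophages are given as a whole because each can carry a member of the family. B cell markers summed to 2.78 to 5.52 FPKM in CKO and 27.5 to 115 FPKM in Control libraries, and 5 of 5 tested fell. Eosinophil markers were at most 1.07 FPKM and dendritic cell markers at most 0.804 FPKM in any library. The summed markers of B cells, mast cells, eosinophils, large peritoneal macrophages, and monocytes with small peritoneal macrophages were each lower in every CKO library, and their part in the values of the members was not tested.

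**Figure D5:**
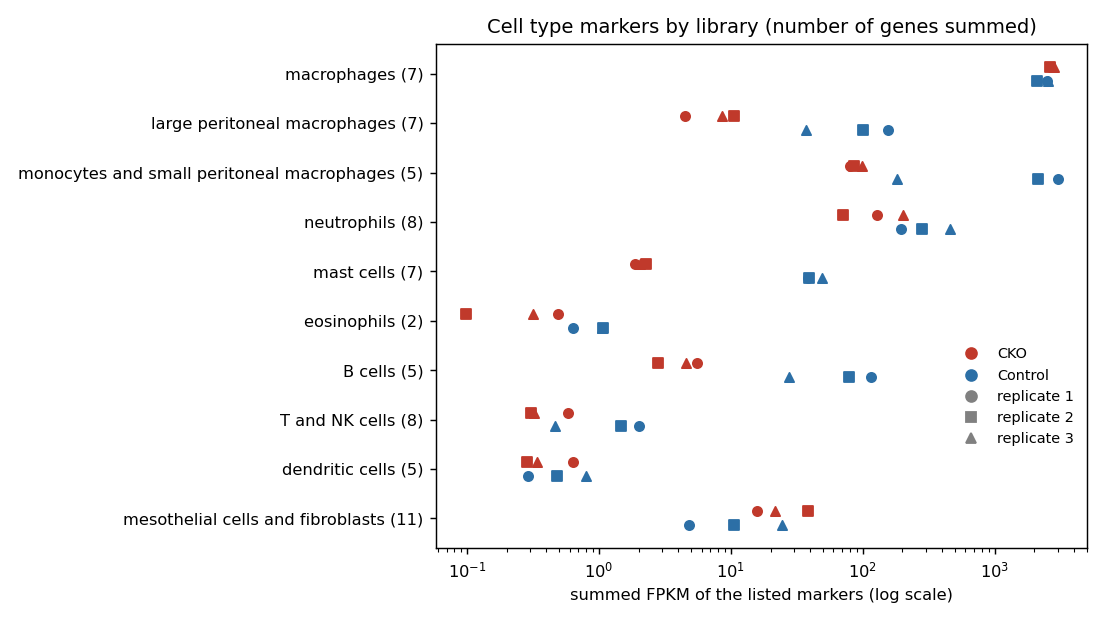
Summed FPKM of each list of cell type markers in the 3 CKO and 3 Control libraries, on a log axis. The sums of mast cell, B cell, eosinophil, large peritoneal macrophage, and monocyte and small peritoneal macrophage markers are lower in every CKO library, that of macrophages is higher, and the other 4 overlap.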

How the data were processed

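RNA of 6 libraries of PEMs (3 CKO and 3 Control, grouped by title) was measured by sequencing. The authors deposited 1 table for the whole comparison. Its FPKM values, 1 column for each library, were scaled by the authors to gene length and to the library total. The signal values deposited are group averages of counts, which the authors divided by the size factors of DESeq2. The deposited table also holds the authors' own comparison of the groups, given as a fold change (a ratio), as log2 and with p-value and q-value columns, and this was not used. The labels name the mouse build mm9, and the aligner, the counting and the annotation are not given in the sources used here. Sequences were read from RefSeq (GRCm38.p6) and GENCODE M21 and were set beside no coordinate of the deposited table. The promoter table matched 5 of the 8 members by symbol.

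From FPKM and group averages, reads were worked out per gene and library (100% of values were whole within 0.05). Counting error can be read from them, and it covers counting alone. The test was that of limma 3.58.1 under R 4.3.3 (lmFit, then eBayes with a trend) on log2(FPKM + 1). It covered the 9030 genes that averaged at least 1 FPKM in one group, with Benjamini-Hochberg adjustment over these and a threshold of 0.05. The pseudocount understates the change of low genes. An exact permutation test of 3 against 3 cannot give a two-sided p below 0.1. Coding sequences were aligned with biopython 1.88.

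The members and gene lists were chosen with earlier results of these data known. Genes named are the members, Timd4 and Lyz2, the genes past the threshold in each pathway list (up to 6) with the most abundant one, and the 5 genes nearest to Csf1 and to Csf3. Others were named after their values were seen. Csf3, Csf1r and Csf2rb have no promoter shown, and Il34 and Il3 were not analysed here.

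Deviations from the group means correlated at 0.109, 0.109 and 0.304 between libraries numbered 1, 2 and 3, all above 0.1, and between -0.332 and 0.291 for unlike numbers. CKO 2 and Control 1, of unlike numbers, reached 0.291 and so exceeded the like-numbered 0.109. The check therefore does not settle whether the numbers pair the libraries. The main comparison used no pairing, and the number entered as a block in an alternative only. Alternatives were no filter, at least 10 reads in every library, a pseudocount of 0.1, a rescaling by the median of ratios, voom on the recovered reads, the replicate block, and each library left out.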

Additional observations from a re-analysis of the deposited data

How the results depend on the processing

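The number of genes past the threshold was 660 (232 higher, 428 lower). It was 446 without a filter on low values, 709 with at least 10 reads in every library, 692 with a pseudocount of 0.1, 669 after rescaling, 589 with voom and 855 with the replicate block. Leaving out 1 library gave 8 (without Control 2) to 1278 (without Control 3), against 30 without CKO 1 and 63 without CKO 2. The share of calls that were higher in the knockouts was 35.2%, and it was 51.3% after rescaling and 50.6% with voom. Pathway genes past the threshold numbered 0 to 15 with 1 library left out, 6 without a filter, 7 with voom and 12 with the replicate block, which added Edn1, Il12b, Pik3cd and Socs3 and dropped Kit. The block changed the call of no member. The members past the threshold were 0 without a filter, where the difference of Csf1 was 1.09. That difference was between 0.97 and 1.28 with 1 library left out. That of Csf3 was between -1.47 and -0.97, that of Csf1r between -0.96 and -0.57, and that of Csf2ra between -0.14 and 0.16, below 0 without CKO 1 or Control 2. Csf2 is limited by its depth of 51 to 144 reads per library. The cause of these changes was not tested.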
